A study of Mus musculus with 12 samples.

Results

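Grp, Lhx1, Egfl6 and Cpz are 4 genes outside the muscle programme whose signal differed widely between mouse embryonic fibroblasts (MEFs) that received different sets of cardiac transcription factors. They were 4 of 12393 genes with a probe set of a single gene symbol on the array. They were selected because their signals on these same 12 arrays differed strongly between TF groups or from the control, so every difference between groups given for them is a description and carries no test. All 5 probe sets of the 4 genes, of 22626 on the array, are reported. Grp, Egfl6 and Cpz each had 1 and Lhx1 had 2.

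The cells were MEFs labelled C57BL/6 and transduced with lentiviruses, and every group, the control included, carried M2rtTA, the doxycycline-dependent activator. TF group 1 received GATA4, TBX5 and MEF2C. TF group 2 received those 3 factors with Mesp1 and SMARCD3, and TF group 3 received the 5 factors of TF group 2 with MYOCD and SRF. The negative control received M2rtTA alone. Each group had 3 arrays, labelled biological replicates, of total RNA taken after 7 days of doxycycline, and valproic acid is also named for the induction media in the methods. The cDNAs were human except mouse Mesp1, and the labels name no sort, so RNA came from transduced and untransduced cells together. In such bulk RNA, fewer cells that transcribe a gene and less RNA per cell cannot be told apart.

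The 4 genes act outside the cell or upstream of tissue identity. Grp encodes gastrin-releasing peptide, a bombesin-like neuropeptide that is cut from a precursor and signals through the receptor Grpr. Lhx1 encodes a LIM homeodomain transcription factor required for the head organizer and for the nephric duct and kidney in the mouse, where it works with the cofactor Ldb1. Egfl6 encodes a secreted matrix protein with EGF repeats and a MAM domain that binds integrin alpha8 beta1, as its relative nephronectin does. Cpz encodes carboxypeptidase Z, a secreted metallocarboxypeptidase that carries a frizzled-type cysteine-rich domain and can bind Wnt proteins.

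Several of the delivered factors bind DNA through short motifs, and the 250 bases before the transcription start of Lhx1, Egfl6 and Cpz are therefore shown. They were taken from RefSeq on GRCm38.p6, read 5′ to 3′ on the gene's strand, with matches in capitals. The motifs searched on both strands were GATA (the letters GATA preceded by A or T and followed by A or G), the T-box motif AGGTGT, the E-box CANNTG (the site of bHLH factors such as Mesp1), MEF2 and the CArG box of SRF.
Lhx1, chr11:84525535-84525784, minus strand: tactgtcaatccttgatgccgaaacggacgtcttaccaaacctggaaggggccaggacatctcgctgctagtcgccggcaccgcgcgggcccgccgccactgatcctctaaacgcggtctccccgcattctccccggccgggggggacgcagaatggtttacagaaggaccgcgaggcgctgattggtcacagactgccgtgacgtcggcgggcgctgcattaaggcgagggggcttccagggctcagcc
Egfl6, chrX:166585717-166585966, minus strand: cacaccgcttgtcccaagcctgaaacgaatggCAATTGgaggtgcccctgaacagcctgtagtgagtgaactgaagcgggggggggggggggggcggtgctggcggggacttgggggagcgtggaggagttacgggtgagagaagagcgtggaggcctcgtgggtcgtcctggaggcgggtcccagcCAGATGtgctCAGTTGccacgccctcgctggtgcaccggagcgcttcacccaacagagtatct
Cpz, chr5:35525627-35525876, minus strand: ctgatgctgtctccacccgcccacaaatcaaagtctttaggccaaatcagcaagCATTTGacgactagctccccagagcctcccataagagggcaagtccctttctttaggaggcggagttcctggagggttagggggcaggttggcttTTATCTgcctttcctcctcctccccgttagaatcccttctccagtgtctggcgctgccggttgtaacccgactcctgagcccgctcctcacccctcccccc

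The Lhx1 window held none of these motifs. The Egfl6 window held 3 E-boxes, at 218 to 213, 63 to 58 and 53 to 48 bases before the start. The Cpz window held 1 E-box at 196 to 191 bases and 1 GATA motif on the opposite strand at 101 to 96 bases before the start. No match overlapped another. Among 32851 RefSeq promoter windows of 250 bases, 66.2% held an E-box, 26.5% a GATA motif, 11.8% the T-box motif, 0.508% a MEF2 site and 1.47% a CArG box, so E-boxes and GATA motifs are common in windows of this length. The G and C content was 64.8% for Lhx1, 64.8% for Egfl6 and 57.6% for Cpz.

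Signals below are the linear array values as deposited, which had the same trimmed mean of 500.2 on each array. Differences are between mean log2 signals with the standard error (SE) of the fit. The fit pools the spread of all 4 groups of a probe set. The SE of a comparison between bright groups therefore also holds the noise of groups with dim values. The replicate SD on the log2 scale had a median of 0.901 where the mean log2 signal was under 5, and of 0.142 where it was between 7 and 9. A signal of 32, which is 5 on the log2 scale, was therefore used as a floor, and a fold against a group below it is written as at least so many.

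Of the 4 genes, Grp had the widest range between factor sets, with its peak in TF group 2. The Grp signal (1424525_at) was 9.43, 19.5 and 33.0 on the TF group 1 arrays, 4916, 5193 and 5042 on the TF group 2 arrays and 438, 533 and 448 on the TF group 3 arrays, against 9.34, 20.2 and 12.3 on the negative control arrays. Every TF group 2 array was above every other array, every TF group 3 array was above all TF group 1 and control arrays, and the TF group 1 and control arrays overlapped. Group means were 20.6 ± 11.8, 5050 ± 138 and 473 ± 52.2 in TF groups 1, 2 and 3, and 14 ± 5.59 in the negative control (SD, n = 3 each). The replicates of TF group 2 had a coefficient of variation of 2.74%, and those of TF group 3 of 11%.

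Relative to the negative control, Grp was 8.57 higher on the log2 scale in TF group 2 (SE 0.41) and at least 158-fold up. In TF group 3 it was 5.15 higher than the control (SE 0.41), at least 14.7-fold. In TF group 1 the log2 difference from the control was 0.46 (SE 0.41), with both means under the floor. Grp in TF group 2 was 8.11 above TF group 1 on the log2 scale. TF group 3, which received every factor of TF group 2 and also MYOCD and SRF, had a 10.7-fold lower Grp signal than TF group 2 (log2 difference -3.42, SE 0.41). The order of the levels was TF group 2, TF group 3, then TF group 1 and the control, and these last groups did not differ beyond their spread.

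Lhx1, by contrast, had signal in the largest factor set alone. The brighter Lhx1 probe set (1450428_at) gave 6.69, 2.02 and 7.15 on the TF group 1 arrays, 2.32, 4.46 and 1.59 on the TF group 2 arrays and 305, 303 and 310 on the TF group 3 arrays, against 3.31, 20.2 and 22.7 on the control arrays. The other probe set (1421951_at) gave 3.18, 3.68 and 2.01 on the arrays of TF group 1, 12.6, 3.05 and 7.17 on those of TF group 2 and 99.7, 103 and 119 on those of TF group 3, against 2.64, 11.8 and 6.58 in the control. On both, the 3 TF group 3 arrays stood above the floor and all 9 other arrays stood below it. Mean signals of the brighter probe set were 5.29 ± 2.84, 2.79 ± 1.49 and 306 ± 3.94 in TF groups 1, 2 and 3, and 15.4 ± 10.6 in the control (SD, n = 3 each), with a coefficient of variation of 1.29% in TF group 3.

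The TF group 3 signal of Lhx1 was at least 9.57-fold above TF group 1, TF group 2 and the negative control on the brighter probe set, and at least 3.33-fold above each on the other. The log2 differences of the brighter probe set were 4.73 from the control, 6.91 from TF group 2 and 6.06 from TF group 1 (SE 0.77), and those of the other were 4.18, 4.04 and 5.22 (SE 0.60). These sizes depend on very dim values: without replicate 1 of the control the difference between TF group 3 and the control was 3.84 instead of 4.73. Between TF group 1, TF group 2 and the control the Lhx1 arrays overlapped, and all means were under the floor, so no order among them could be read.

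**Figure D1:**
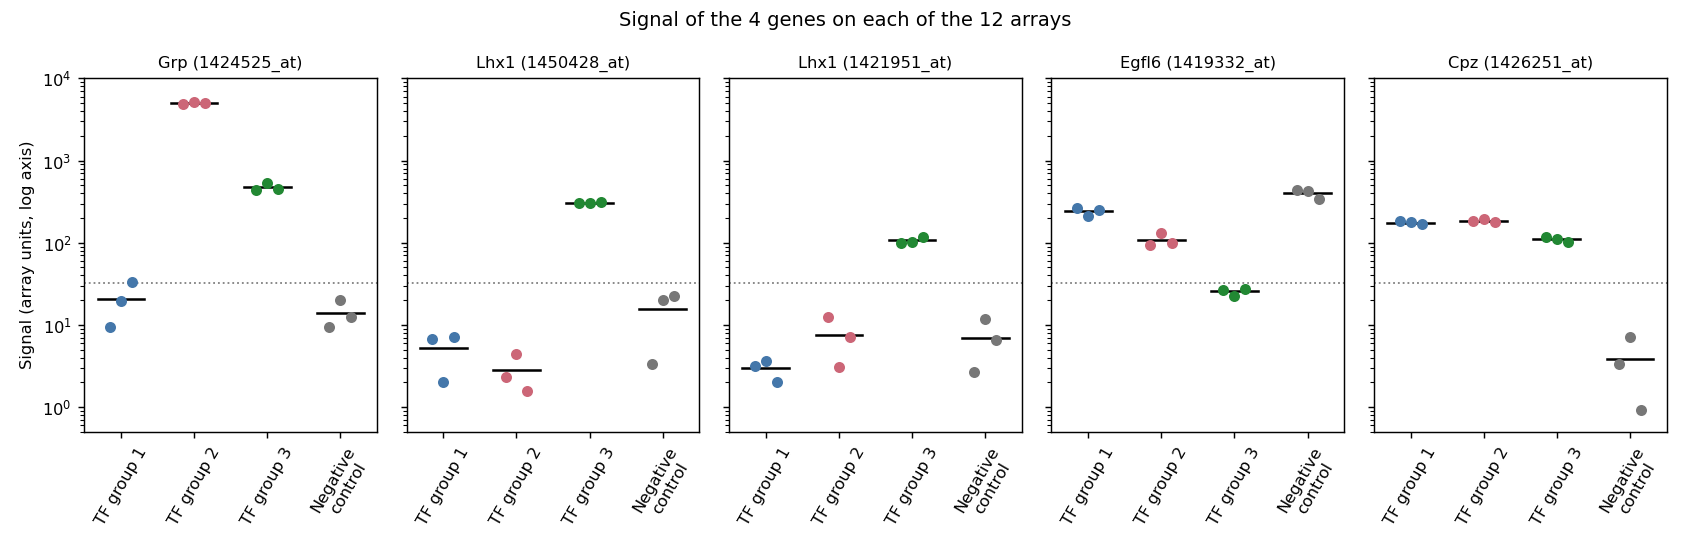
Signal of the 5 probe sets of Grp, Lhx1, Egfl6 and Cpz on each array (vertical log axis, array units), with TF groups 1, 2 and 3 and the negative control from left to right. Points are arrays, 3 in each group, bars are group means, and the dotted line is the floor of 32: Grp peaks in TF group 2 at 4916 to 5193, Lhx1 is above the floor in TF group 3 alone, Egfl6 is highest in the control at 344 to 437 and Cpz is below the floor in the control alone.

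Egfl6 was the member with its highest signal in the negative control, and its level was lower with each larger factor set. Its signal (1419332_at) was 262, 214 and 250 on the TF group 1 arrays, 93.0, 132 and 99.5 on the TF group 2 arrays and 26.9, 22.5 and 27.5 on the TF group 3 arrays, against 437, 429 and 344 on the negative control arrays. No group overlapped another: all 3 arrays of each group lay below those of every group with fewer delivered factors. Means were 242 ± 25.1, 108 ± 20.7 and 25.6 ± 2.70 in TF groups 1, 2 and 3, and 403 ± 51.8 in the control (SD, n = 3 each).

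Against the control, the log2 difference of Egfl6 was -0.74 in TF group 1, 1.67-fold lower, -1.91 in TF group 2, 3.75-fold lower, and -3.97 in TF group 3, at least 12.5-fold lower (SE 0.16 each). The steps between TF groups were of similar kind: TF group 2 was 2.25-fold below TF group 1, and TF group 3 was at least 3.34-fold below TF group 2 and at least 7.53-fold below TF group 1. In TF group 3 all Egfl6 arrays were under the floor, while their replicates differed little, with a coefficient of variation of 10.5%.

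Cpz was below the floor in the control and above it with every factor set. Its signal (1426251_at) was 182, 177 and 168 on the TF group 1 arrays, 184, 192 and 180 on the TF group 2 arrays and 118, 113 and 102 on the TF group 3 arrays, against 3.38, 7.22 and 0.925 on the negative control arrays. Means were 176 ± 7.40, 185 ± 6.09 and 111 ± 7.81 in TF groups 1, 2 and 3, and 3.84 ± 3.17 in the control (SD, n = 3 each). The 9 TF arrays lay above the floor and the 3 control arrays below it.

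Above the negative control, Cpz was at least 5.48-fold up in TF group 1, at least 5.79-fold up in TF group 2 and at least 3.46-fold up in TF group 3. The fitted log2 differences were 5.96, 6.03 and 5.29 (SE 0.57), and they leaned on the dimmest control array: without replicate 3 of the control they were 5.15, 5.23 and 4.49. TF group 2 and TF group 1 overlapped, with a log2 difference of 0.08. TF group 3 differed by -0.74 from TF group 2 on the log2 scale, 1.67-fold lower, and by -0.66 from TF group 1, 1.58-fold lower (SE 0.57 each). Its arrays did not overlap those of either. The SE took in the dim control, with a log2 SD of 1.5, against 0.06, 0.05 and 0.1 in TF groups 1, 2 and 3.

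The genes that shared the pattern of each member were counted, with limits that differed between members. Counting signals below 32 as 32, every TF group 2 array was over 4 times every other array for 2 genes, or 0.0161% of all, which were Grp and Nefl, the neurofilament light chain of neurons. Every TF group 3 array was over 4 times every other array for 14 genes (0.113%), Lhx1 among them. The others included the heart and smooth muscle genes Actc1, Myh6, Myh11, Mylk and Nppa. The rest were Ccl17, Cd93, Efhd1, Ifitm1, Noxo1, Sez6l2, Sh3bgr and Stmn3. A stepwise lower signal without overlap, in the order of Egfl6, was found for 58 genes (0.468%). The order of Cpz, with all TF arrays above the control and TF group 3 below the other TF groups, was found for 406 genes (3.28%). These limits were set with the values of the 4 genes in view. Those for Grp and Lhx1 asked for a gap of over 4 times, and those for Egfl6 and Cpz only for no overlap. The 4 shares therefore cannot be compared with each other.

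**Figure D2:**
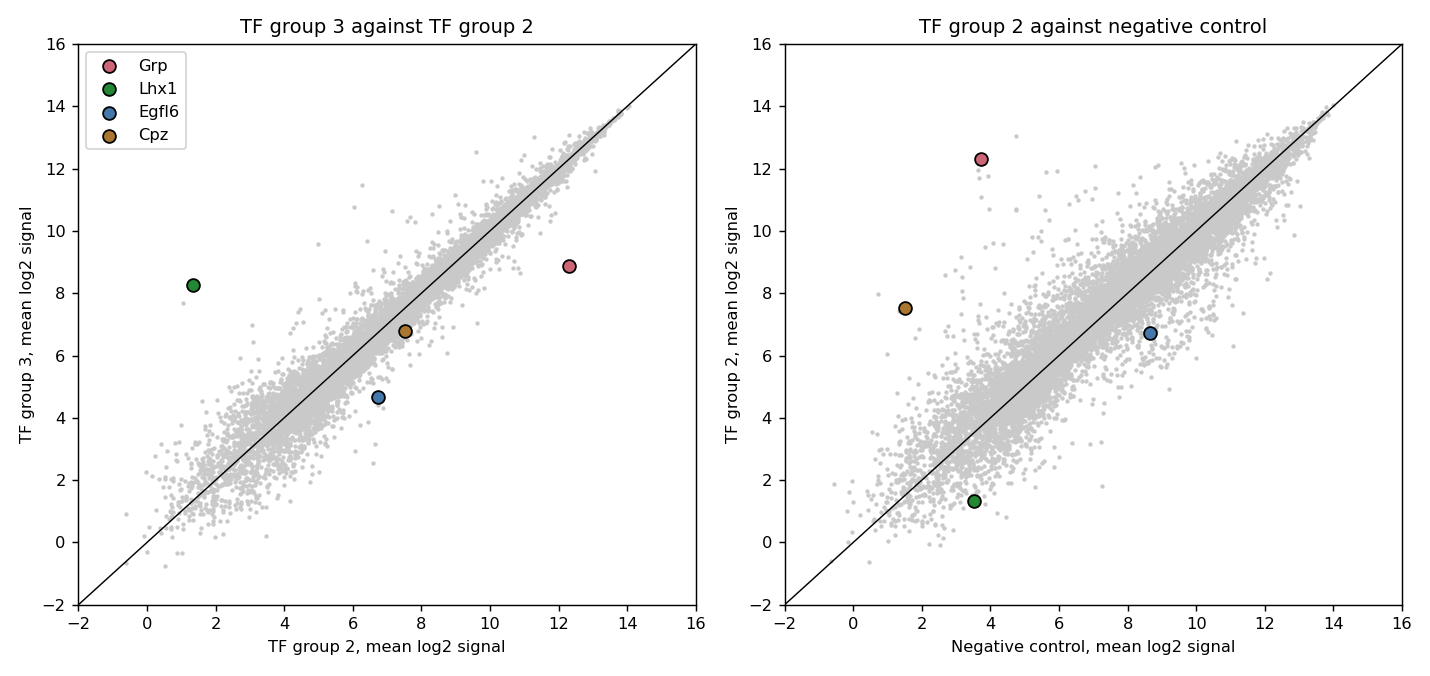
Mean log2 signal of 12393 genes (grey points) in TF group 3 against TF group 2 (left) and in TF group 2 against the negative control (right), with Grp, Lhx1, Egfl6 and Cpz coloured and the line of equal signal. On the left Lhx1 lies above the line and Grp below it, at -3.42 on the log2 scale, and on the right Grp lies above the line, at 8.57, with its control mean under the floor.

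Over all genes, the fit of limma with Benjamini-Hochberg adjustment gives the scale of these contrasts. A gene was called when its adjusted p was under 0.05 and its fold over 1.5. Against the negative control 15.1% of genes were called higher and 8.93% lower in TF group 1, 15.3% higher and 10.1% lower in TF group 2, 14.7% higher and 9.84% lower in TF group 3, and 34.5% were called in at least 1 of these comparisons. Between TF groups fewer were called: 2.08% higher and 1.78% lower in TF group 2 against TF group 1, 2.32% and 1.7% in TF group 3 against TF group 2, and 3.26% and 3.05% in TF group 3 against TF group 1. The split of higher and lower calls depended on scaling. Of the probe sets called against the control, 60.1%, 57.9% and 59.2% were higher in TF groups 1, 2 and 3, against 45.7%, 47.6% and 46.7% with each array centred on its median.

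The poly-A spike probe sets, which report RNA added during labelling, were 0.81 higher on the log2 scale on the TF arrays than on the control arrays. Scaling to these spikes moved the median difference of all probe sets from the control to -0.84, -0.69 and -0.74 in TF groups 1, 2 and 3, and 4.3%, 7.58% and 6.19% of called probe sets were then higher. Under it Grp remained 7.84 higher in TF group 2 than in the control and Cpz 5.06 higher in TF group 1, whereas Grp in TF group 1 turned to -0.44. With each array centred on its median, the TF group 1 calls of Ldb1, Lmo2, Wt1, Egfl7, Cpe and Trappc2 and the TF group 2 calls of Cpxm1 and Cpa3 given below were lost. With 50 added to the signal, which shrinks differences of dim genes, the calls given below against the control were lost for Ldb1, Lmo2, Lmx1b, Wt1, Egfl7, Cpxm2, Acox3 and Rax in TF group 1, for Lmo2, Lmx1b, Pax8, Cpxm1, Cpa3, Cpb1, Sfrp2, Frzb and Acox3 in TF group 2 and for Pax8, Cpb1 and Acox3 in TF group 3. Between TF groups it ended those of Lhx6, Frzb, Egfl7 and Acaca. The directions below for related genes against the control therefore hold for the deposited scale. Between TF groups the median difference of all probe sets moved less, from -0.01 to 0.15 at most with the spikes, in TF group 2 against TF group 1. Scaling to the spikes still ended the calls between TF groups given below for Vip, Foxc1, Aebp1, Frzb, Lhx6, Lmo2, Egfl7 and Acaca (adjusted p = 0.408 at most).

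Markers of other cell types were compared because Grp and Nefl are known from neurons. The summed signal of 15 neuronal marker genes was 6520 to 7280 in TF group 1, 7150 to 7670 in TF group 2 and 6550 to 7040 in TF group 3, against 3680 to 4130 in the control, where 5 of the 15 (Snap25, Syt1, Nefl, Rbfox3 and Syp) had means below 32. In TF group 2 none of the 15 was below 32. A sum of linear signals is set mostly by its brightest genes. Gene by gene, 4, 6 and 5 of the 15 were called higher in TF groups 1, 2 and 3, and 1 lower in each. Of all genes, 15.1%, 15.3% and 14.7% were called higher and 8.93%, 10.1% and 9.84% lower. The median log2 difference of the 15 was 0.18, 0.59 and 0.47. The list holds Nefl, which was picked out above for its TF group 2 signal on these same arrays. Nefl had 19.1 ± 7.67, 785 ± 36.8 and 133 ± 10.1 in TF groups 1, 2 and 3, against 19.9 ± 11.2 in the control. The higher sum of TF group 2 among the TF groups therefore holds a gene chosen for that group. The 15 fibroblast markers summed to 103000 to 109000, 82900 to 87300 and 80300 to 84100 in TF groups 1, 2 and 3, against 89400 to 92800 in the control, and none was below 32 in any group. The 10 epithelial markers summed to 1110 to 1160, 1060 to 1260 and 959 to 1110 in TF groups 1, 2 and 3, against 749 to 895 in the control without overlap, and 4, 2 and 4 of them were below 32 in TF groups 1, 2 and 3, and 4 in the control. The 9 endothelial markers summed to 242 to 292, 226 to 301 and 188 to 269 in TF groups 1, 2 and 3, against 190 to 319 in the control, with 4, 5 and 5 below 32, and 5 in the control. The macrophage list, with 9 measured genes, summed to 502 to 521, 622 to 645 and 630 to 687 in TF groups 1, 2 and 3, against 586 to 673 in the control, with 3, 3 and 2 below 32, and 1 in the control. The part of these lists in the results on the members was not tested.

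Of the delivered factors, mouse Mesp1 could be followed directly. Its signal was 116 ± 4.61 in TF group 1, 2090 ± 80.4 in TF group 2 and 1520 ± 243 in TF group 3, against 131 ± 46.3 in the negative control (SD, n = 3 each), high in the groups labelled with it. Grp was above the floor on all 6 arrays of these groups and on 1 of the other arrays. Between them, Mesp1 was 1250 to 1730 on the TF group 3 arrays and 2000 to 2150 on the TF group 2 arrays, beside the 10.7-fold lower Grp signal of TF group 3, and the part of Mesp1 in that difference was not tested. Mouse Smarcd3, the other factor added in TF group 2, gave 674 ± 86.2, 919 ± 39.1 and 1060 ± 41.7 in TF groups 1, 2 and 3. The control had 297 ± 50.9. Smarcd3 was thus above the control in TF group 1 too, which did not receive it, and its part in the Grp differences was not tested. The mouse Smarcd3 and Myocd probe sets need not detect the human cDNAs. Myocd gave 32.8 ± 2.12, 74.7 ± 5.35 and 45.3 ± 8.26 in TF groups 1, 2 and 3, and 47.5 ± 12.7 in the control on the brighter of its probe sets. Mouse Srf gave 427 ± 37.2, 467 ± 58 and 440 ± 44.8, against 794 ± 67.1 in the control on its brighter probe set, so the arrays did not show the delivery of MYOCD or SRF, the factors that set TF group 3 apart from TF group 2.

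Among 23 measured genes of the bombesin and neuropeptide list, 11 were called against the control in at least 1 TF group. Of all genes, 34.5% were. TF group 1 had 8 higher and 3 lower, TF group 2 had 5 higher and 2 lower, and TF group 3 had 4 higher and 3 lower. The median log2 difference was 0.62, 0.48 and 0.44 in TF groups 1, 2 and 3, where the median of all genes was 0.07, 0.06 and 0.05. Dim genes entered these medians, among them Pcsk1n, Scg3 and Chgb, which had every group mean under 32 and were not called. With 50 added to the signal, the list medians were 0.17, 0.13 and 0.19 in TF groups 1, 2 and 3. Scaled to the poly-A spikes, they were -0.28, -0.26 and -0.35. The receptor Grpr had a signal of 90.0 ± 9.42, 98.9 ± 9.15 and 61.7 ± 20 in TF groups 1, 2 and 3, against 64.1 ± 14.9 in the control, and it passed in no comparison (lowest adjusted p = 0.0542, in TF group 2 against the control), although there it passed without replicate 1 of the control (adjusted p = 0.027) and without replicate 1 (adjusted p = 0.0237) or 2 (adjusted p = 0.0254) of TF group 3. Without replicate 1 of TF group 3 it was also lower in TF group 3 against TF group 2 (-0.97, adjusted p = 0.0364) and against TF group 1 (-0.83, adjusted p = 0.0441). The sister peptide Nmb stayed under 32 in every group mean and passed in none, nor did the bombesin receptors Nmbr and Brs3.

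Scg2, the granule protein secretogranin II, had its highest mean in TF group 2, as Grp did. Unlike Grp, it was also above the control in TF group 1 (log2 2.44, adjusted p = 2.77e-05 in limma). Its signal was 96.8 ± 15.9, 454 ± 45.3 and 324 ± 15.6 in TF groups 1, 2 and 3, against 18.4 ± 6.04 in the control. It rose by at least 14.1-fold in TF group 2 over the control (log2 4.67, SE 0.23, adjusted p = 3.79e-07 in limma) and by 4.72-fold over TF group 1 (adjusted p = 0.000549), while TF group 3 and TF group 2 differed by -0.48 (adjusted p = 0.273). Nts, the precursor of neurotensin, rose by 3.28-fold, 6.86-fold and 6.31-fold over the control in TF groups 1, 2 and 3, and by 2.1-fold in TF group 2 over TF group 1 (adjusted p = 0.00108). Tac1, the precursor of substance P, fell in all TF groups, with log2 differences of -2.83, -3.09 and -3.96 from the control in TF groups 1, 2 and 3 (SE 0.63, highest adjusted p = 0.00555). Vip rose 3.6-fold in TF group 1 over the control (adjusted p = 0.0176), a call lost without replicate 3 of TF group 1 or replicate 2 of the control (adjusted p = 0.0654 at most). Vip in TF group 2 fell against TF group 1, with a log2 difference of -2.51 (adjusted p = 0.0198, up to 0.0704 without 1 of the arrays of these groups other than replicate 2 of TF group 1), and the Npy decrease in TF group 1 (log2 difference -1.39, adjusted p = 0.0474) was lost in 10 of 12 fits that left out 1 array, all but those without replicate 1 of TF group 1 or replicate 2 of TF group 3 (adjusted p = 0.106 at most).

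**Figure D3:**
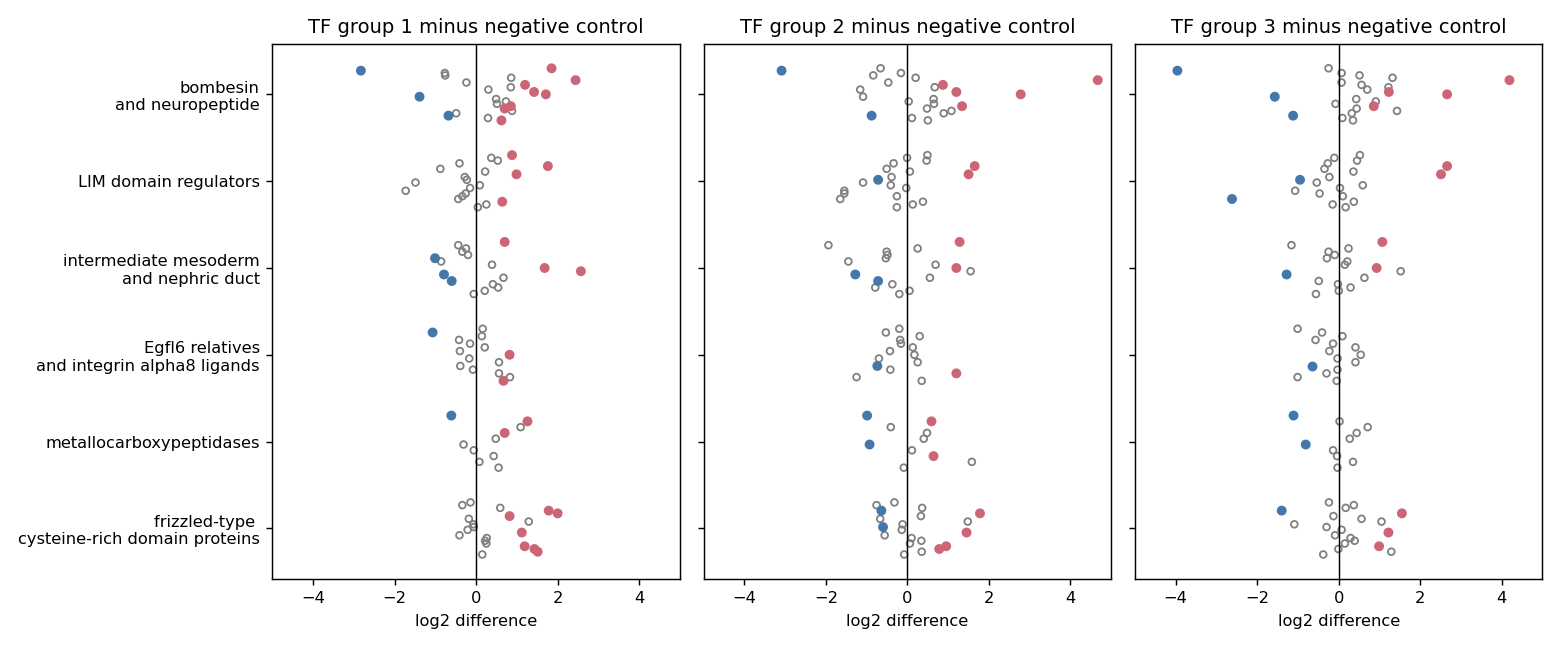
Log2 difference from the negative control (horizontal axis) of each measured gene of 6 lists of genes related to the 4 members, in TF groups 1, 2 and 3. Filled points passed the test, red higher and blue lower, and open points did not: Scg2 is the rightmost point in TF group 2 at 4.67, and Tac1 the leftmost in TF group 3 at -3.96.

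Of 20 measured LIM domain regulators, 6 were called against the control in at least 1 TF group, as were 34.5% of all genes. The median difference of the 20 regulators in TF group 3 was -0.04. In TF group 3 against TF group 2, 1 was higher and none lower: Lhx6 (log2 1.00, adjusted p = 0.0341), lost in 5 of 12 fits that left out 1 array, those without replicate 1 or 2 of TF group 2 or any array of TF group 3 (adjusted p = 0.109 at most). Lhx5, the closest relative of Lhx1, had 59.5 ± 6.40, 64.8 ± 4.49 and 67.8 ± 7.93 in TF groups 1, 2 and 3, against 67.8 ± 20.3 in the control, and passed in no comparison. The cofactor Ldb1 was 0.64 higher in TF group 1 (adjusted p = 0.000435) and 0.37 higher in TF group 3 than in the control, under the fold limit there. Ldb2 fell by 2.62 in TF group 3 against the control, at least 2.5-fold (adjusted p = 0.015), a call lost without replicate 2 or replicate 3 of TF group 3 (adjusted p = 0.0567 at most). Lmo2, a LIM-only partner of Ldb1 in blood cells, rose in all TF groups and by at least 3.11-fold in TF group 3 (adjusted p = 0.000142), with 34.5 ± 1.87, 51.7 ± 18.6 and 99.8 ± 11.2 in TF groups 1, 2 and 3, and 18.1 ± 5.67 in the control, its TF group 1 call (adjusted p = 0.0298) being lost without any of the TF group 1 arrays or replicate 1 of the control (adjusted p = 0.0954 at most). In TF group 3 it was also 1.53 above TF group 1 on the log2 scale (adjusted p = 0.0106) and 1.02 above TF group 2 (adjusted p = 0.0814, but 0.0468 without replicate 1 of the control). Lmx1b rose by at least 1.31-fold in TF group 3 (log2 2.66, adjusted p = 0.00382). With means under 32, it was also called higher in TF group 1 (1.76, adjusted p = 0.0311) and TF group 2 (1.65, adjusted p = 0.0399). These 2 calls were lost in 4 and 9 of 12 fits that left out 1 array (adjusted p = 0.117 at most). Lmx1b in TF group 3 was not called against TF group 2 (1.01, adjusted p = 0.347). Lhx9, a gonadal factor, fell by 0.72 in TF group 2 and by 0.95 in TF group 3 on the log2 scale.

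Of 17 measured genes of intermediate mesoderm and nephric duct, where Lhx1 acts in the embryo, 6 were called against the control in at least 1 TF group. This held for 34.5% of all genes. None of the 17 was called in TF group 3 against TF group 2, where 2.32% of all genes were higher and 1.7% lower. Osr1, an early marker of this mesoderm, fell in all TF groups, with log2 differences of -0.79, -1.28 and -1.28 in TF groups 1, 2 and 3 (SE 0.06, highest adjusted p = 1.11e-05). Six2, a nephron progenitor factor, fell by 1.01 in TF group 1 against the control (adjusted p = 0.00507), and Foxc1 fell by 0.78 in TF group 2 against TF group 1 (adjusted p = 0.00943). Wt1 rose 1.63-fold, 2.43-fold and 2.1-fold in TF groups 1, 2 and 3, the first of these not without replicate 1 of TF group 1 (log2 0.58). Pax8 rose in TF group 1 by at least 1.59-fold, and in TF group 2 by at least 1.14-fold, and its call in TF group 3 (0.93, adjusted p = 0.0249) was lost without any control array or replicate 2 of TF group 3 (adjusted p = 0.0846 at most). Osr2 rose in TF group 1 by at least 2.07-fold (adjusted p = 0.0155, but 0.0503 without replicate 3 of TF group 1).

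Among 15 measured relatives of Egfl6 and ligands of its integrin, 5 were called against the control in at least 1 TF group. The share over all genes was 34.5%. None of the 15 showed the 3 successive steps of Egfl6. Npnt, the nephronectin gene, had 703 ± 74.0, 827 ± 29.3 and 633 ± 69.8 in TF groups 1, 2 and 3, against 937 ± 54.6 in the control. Its log2 difference of -0.57 in TF group 3 was under the fold limit (adjusted p = 0.00148), and it passed at -0.66 without replicate 1 of TF group 3, at -0.61 without replicate 1 of the control, at -0.68 with arrays centred on the median and at -0.59 with quantile normalization. Itga8, the integrin alpha8 chain, rose 1.77-fold in TF group 1 (adjusted p = 0.012), and Itgb1 passed in no comparison. Fbln1, the matrix protein fibulin 1, was highest in TF group 2, at 790 ± 78.3, 1230 ± 80.8 and 440 ± 77.5 in TF groups 1, 2 and 3 and 536 ± 13.4 in the control, and in TF group 3 fell against TF group 2, with a log2 difference of -1.5 (adjusted p = 0.000152). Fbln5 fell by 0.74 in TF group 2 and by 0.65 in TF group 3 against the control, Tnc fell by 1.07 in TF group 1, and Egfl7 rose 1.59-fold there (adjusted p = 0.00656). Egfl7 in TF group 3 was 1.65-fold below TF group 1 (adjusted p = 0.0136, but 0.0522 when replicate 2 of TF group 1 was left out and 0.0509 when replicate 3 of TF group 3 was).

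Of 10 other metallocarboxypeptidases measured, 5 were called against the control in at least 1 TF group, beside 34.5% of all genes. Cpxm1 had 808 ± 46.4, 507 ± 28.9 and 341 ± 10.8 in TF groups 1, 2 and 3, against 337 ± 33.3 in the control. It rose 2.4-fold in TF group 1 (adjusted p = 2.72e-06), and its 1.51-fold increase in TF group 2 was under the fold limit without replicate 2 or 3 of TF group 2 or of the control (log2 0.54 to 0.57). It then fell by 1.24 in TF group 3 against TF group 1 (adjusted p = 2.63e-05). Cpxm2 fell in all TF groups, with log2 differences of -0.61, -0.99 and -1.11 in TF groups 1, 2 and 3, the first of these not without replicate 1 of TF group 1 or of the control. Cpe, which trims peptide hormone precursors, rose 1.63-fold in TF group 1 (adjusted p = 6.69e-06), Cpd passed in no comparison, and Aebp1 fell by 0.64 in TF group 2 against TF group 1 (adjusted p = 0.000615). Cpb1 fell by 0.93 in TF group 2 and fell by 0.81 in TF group 3, and Cpa3 rose 1.56-fold in TF group 2, a call lost in 7 of 12 fits that left out 1 array, those without any TF group 2 array, replicate 2 or 3 of the control, replicate 1 of TF group 1 or replicate 3 of TF group 3 (adjusted p = 0.146 at most).

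Proteins with a frizzled-type cysteine-rich domain like that of Cpz were called against the control in 8 of 20 measured cases. Over all genes, 34.5% were called in at least 1 TF group. TF group 1 had 7 higher and none lower, TF group 2 had 4 higher and 2 lower, and TF group 3 had 3 higher and 1 lower. The Wnt antagonist Sfrp1 rose 4-fold, 3.43-fold and 2.92-fold in TF groups 1, 2 and 3 (highest adjusted p = 1.91e-06). Sfrp2 had 634 ± 192, 115 ± 9.51 and 69.3 ± 16.3 in TF groups 1, 2 and 3, against 180 ± 17.2 in the control. It rose 3.44-fold in TF group 1 and fell 2.63-fold in TF group 3 against the control, and TF group 3 was 9.05-fold below TF group 1 (adjusted p = 3.03e-05). Its log2 difference of -0.64 in TF group 2 (adjusted p = 0.042) was lost in 8 of 12 fits that left out 1 array, among them all without an array of TF group 2 or the control (adjusted p = 0.12 at most). Frzb rose in TF group 1 (2.7-fold) and in TF group 2 (1.71-fold), and was -0.01 from the control in TF group 3, 1.72-fold below TF group 2 (adjusted p = 0.0046). Ror2, a Wnt receptor, rose 1.76-fold in TF group 1 and in TF group 3 was 1.93-fold below TF group 1 (adjusted p = 0.000699). The Corin increase of 1.51 in TF group 1 (adjusted p = 0.0355) was lost without any TF group 1 array or replicate 2 of TF group 3 (adjusted p = 0.0896 at most).

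The genes whose log2 signals lay closest to each member over the 12 arrays were taken from 7651 genes with a group mean of at least 7 on the log2 scale. The arrays share groups, so the correlations describe the group pattern and carry no test. For Grp they were B3gnt2 (r = 0.989), Angpt4 (r = 0.983) and Dtd1 (r = 0.979). Dtd1, a tRNA-editing deacylase, had 449 ± 22.7, 2830 ± 101 and 982 ± 103 in TF groups 1, 2 and 3, against 285 ± 26.8 in the control, and the angiopoietin gene Angpt4 had 48.4 ± 6.70, 365 ± 56.2 and 198 ± 4.97, against 41.7 ± 13.7. Each was highest in TF group 2 and intermediate in TF group 3, as Grp was.

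For Lhx1 the nearest genes were Bud31 (r = 0.962), Psmd2 (r = 0.953) and Lmcd1 (r = 0.951). Of these, Lmcd1, a LIM-domain cofactor, had 116 ± 12.2, 87.1 ± 12.3 and 276 ± 20.7 in TF groups 1, 2 and 3, against 154 ± 17.1 in the control. The splicing gene Bud31 and the proteasome gene Psmd2 changed far less, with 4420 ± 6.10 and 3000 ± 28.1 in TF group 3 against 3680 ± 269 and 2470 ± 156 in the control. Since 9 of the 12 Lhx1 values lay under the floor, its correlations rest on TF group 3 against the rest and on noise among dim values. For Egfl6 they were Cmtm3 (r = 0.974), Kitl (r = 0.971) and Eps8 (r = 0.971). Kitl, the ligand of the receptor Kit, had 434 ± 42.9, 202 ± 14.1 and 111 ± 26 in TF groups 1, 2 and 3, against 522 ± 13.2 in the control.

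For Cpz the nearest genes were Gdpd1 (r = 0.989), Smpdl3a (r = 0.986) and Trappc6a (r = 0.985). Smpdl3a, a phosphodiesterase gene, had 625 ± 12.8, 612 ± 29.9 and 503 ± 11.8 in TF groups 1, 2 and 3, against 172 ± 19.3 in the control, which is the order of Cpz with signal left in the control. In Gdpd1 and Trappc6a the TF group 3 arrays overlapped those of TF group 1. Among the members themselves the correlations were 0.56 for Grp and Cpz, 0.03 for Grp and Lhx1, -0.06 for Lhx1 and Cpz, -0.52 for Egfl6 and Cpz, -0.64 for Grp and Egfl6 and -0.68 for Lhx1 and Egfl6, so no pair of the 4 followed a common course over the arrays.

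**Figure D4:**
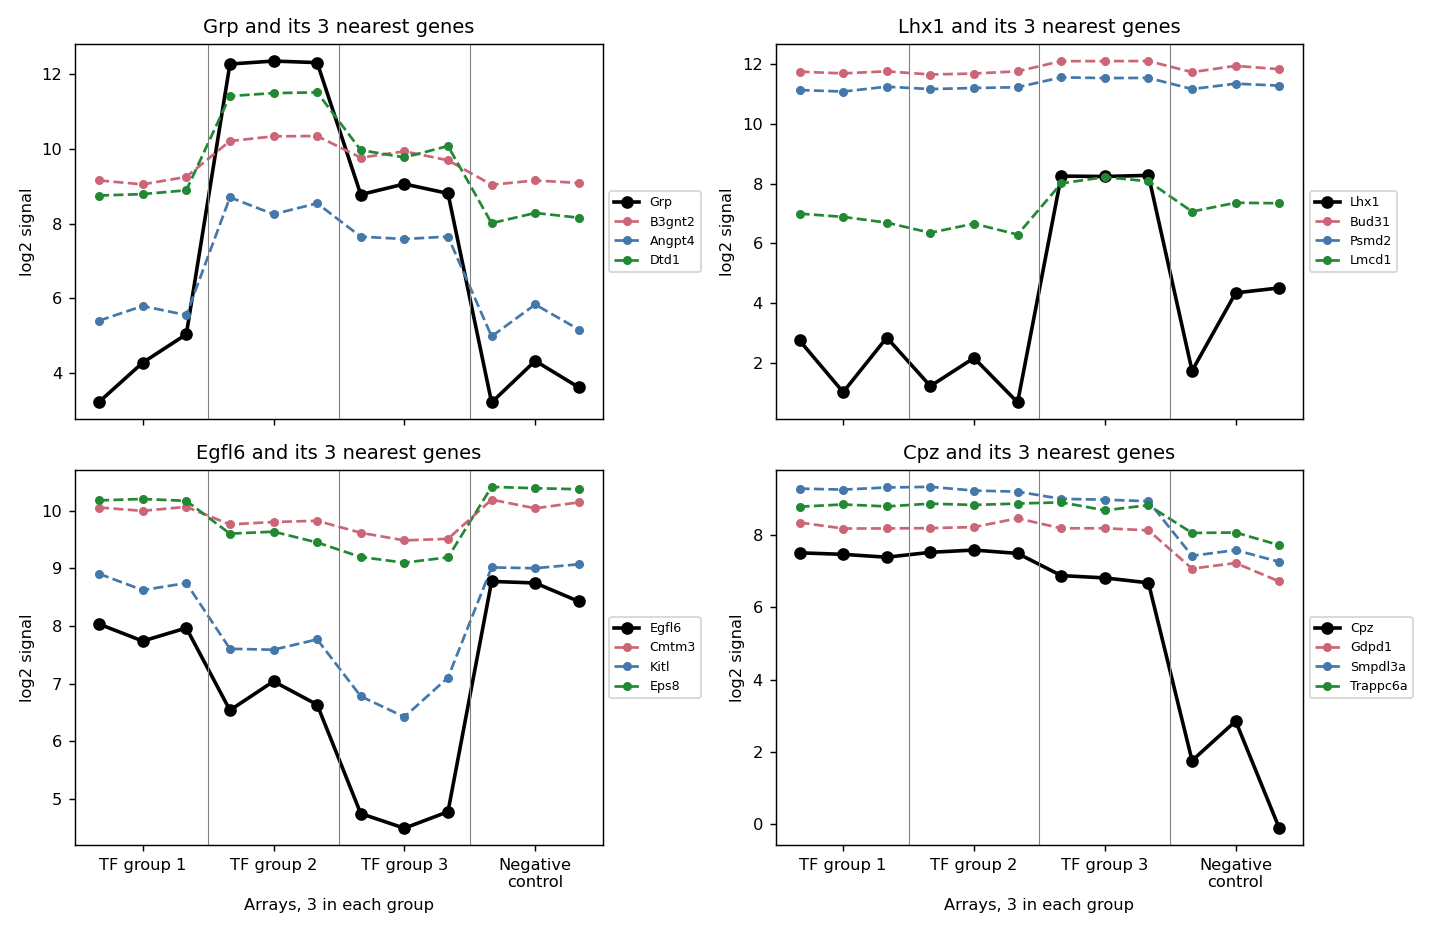
Log2 signal on the 12 arrays (3 in each of TF groups 1, 2 and 3 and the negative control, left to right) of each member (black) and its 3 nearest genes (dashed), with lines that join the arrays of a gene. The group means of the nearest genes of Grp and Egfl6 follow the order of these members over a smaller range, those of Cpz are above the control in all TF groups but with TF group 3 set apart in Smpdl3a alone, and those of Lhx1 differ from it in size, with Lmcd1 the closest in level change.

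The genes next to each member on the chromosome were compared to see whether a wider region moved. Of 16 measured flanking genes, 2 on each side of each member in RefSeq order on GRCm38.p6, 7 were called in at least 1 of the 6 comparisons, as were 35.8% of all genes. Next to Grp, Sec11c, a signal peptidase subunit, had 1140 ± 64.9, 1690 ± 45.1 and 1170 ± 46.1 in TF groups 1, 2 and 3, against 852 ± 16.7 in the control. Its log2 signal in TF group 2 rose by 0.99 over the control (adjusted p = 1.31e-06), and TF group 3 differed from TF group 2 by -0.53 (adjusted p = 0.000846), under the fold limit, so it was highest in the same group as Grp but far less so. On the other side Rax was called lower in TF group 1 (adjusted p = 0.0294) with every group mean under 32, a call lost without replicate 1 or 2 of TF group 1 or replicate 1 or 3 of the control (adjusted p = 0.102 at most). The outer flanking genes Zfp532 and Cplx4 passed in no comparison. Next to Lhx1, Dhrs11 rose by 1.21, 1.46 and 1.00 in TF groups 1, 2 and 3, Aatf fell by 0.69 in TF group 3, and neither passed in TF group 3 against TF group 2. Aatf differed from the control by -0.58 in TF group 1 (adjusted p = 8.72e-05) and -0.55 in TF group 2 (adjusted p = 0.000114), under the fold limit. With arrays centred on the median both passed, at -0.71 and -0.65. Acaca, also beside Lhx1, was called 2.29 higher in TF group 3 against TF group 1 (adjusted p = 0.0243) with every group mean under 32, a call lost without replicate 2 or 3 of either group (adjusted p = 0.0811 at most). Next to Egfl6, Tmsb4x and Rab9 passed in no comparison, and Trappc2 rose by 0.68 in TF group 1 and 0.91 in TF group 2, against the direction of Egfl6. Next to Cpz, Acox3 rose by 0.93, 1.02 and 0.75 in TF groups 1, 2 and 3 (highest adjusted p = 0.0035), whereas Trmt44, between them on that side, passed in no comparison. None of the 16 flanking genes matched the size of the change in its member.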

How the data were processed

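RNA from 12 samples of MEFs, 3 biological replicates in each of 4 groups, was measured on Affymetrix Mouse Genome 430A 2.0 arrays. The deposited values are 1 linear signal intensity per probe set. The submitters' processing notes name RMA and Partek, without versions. RMA output is on the log2 scale, but the deposited intensities were linear, with the same 2% trimmed mean on every array. How they were scaled is therefore not known, and the tests, planned for log2 values, were run after a log2 step. Array medians were 131.5 to 149.7, 20.4% to 24.2% of probe sets lay below 32, and the number of arrays limits the precision. No column was left unmapped.

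Of 22690 probe sets, 64 controls were left out of the tests. Of 22626 tested, 20380 carried 1 symbol, 691 several and 1555 none, and each of 12393 genes was represented by its probe set with the highest mean, 4956 having more than 1. limma 3.58.1 (R 4.3.3) was fitted to all 12 arrays with 1 mean per group, and p-values were adjusted by Benjamini-Hochberg over all probe sets. The steps were tested on simulated data. P-values measure the spread between these arrays. The labels do not say whether replicates came from separate embryos. Same-numbered replicates did not deviate together (median r of 0.01, from -0.07 to 0.12), so the numbers were not used as pairs, and 0 pairs of arrays held identical values.

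The members and gene lists were chosen with earlier results of these data known. Named genes are the members, the genes closest in role, up to 3 genes called higher and 3 lower per list with the largest change, and the 3 nearest genes per member. The floor of 32, the pattern limits and the flanking genes were chosen after values were seen. Alternatives were other scalings, an added 50, an intensity trend, a block, the methods' ANOVA, dim probe sets left out, separate fits, all probe sets of a gene and each array left out.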

Additional observations from a re-analysis of the deposited data

How the results depend on the processing

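Of 24 differences of the members, none whose size exceeded its replicate SD changed direction under any alternative, and sizes moved where 1 group was dim. With 50 added to the signal, Grp differed by 6.32 and 3.03 from the control in TF groups 2 and 3 and by 6.19 and 2.9 from TF group 1. Lhx1 differed by -0.23, -0.3 and 2.46 from the control in TF groups 1, 2 and 3, and in TF group 3 by 2.75 from TF group 2 and 2.69 from TF group 1. Egfl6 then differed by -1.52 and -2.58 from the control in TF groups 2 and 3, by -0.89 in TF group 2 and -1.94 in TF group 3 against TF group 1, and by -1.06 in TF group 3 against TF group 2. Cpz differed by 2.07, 2.13 and 1.58 from the control. With arrays scaled to the poly-A spikes, the differences from the control in TF groups 1, 2 and 3 were -0.44, 7.84 and 4.36 for Grp and -1.63, -2.65 and -4.77 for Egfl6, and 5.06 in TF group 1 and 4.5 in TF group 3 for Cpz. With the mean of both Lhx1 probe sets, TF group 2 differed by -1.02 from the control and by 0.16 from TF group 1, and TF group 3 by 5.48 from TF group 2. Leaving out 1 array at a time, Cpz differed from the control by 5.15 to 6.63, 5.23 to 6.71 and 4.49 to 5.97 in TF groups 1, 2 and 3.

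Scaling to the spikes called 12885, 10816 and 11439 probe sets in TF groups 1, 2 and 3 against the control, where 5137, 5369 and 5195 were called as deposited, and 273, 238 and 543 in TF group 2 against TF group 1, TF group 3 against TF group 2 and TF group 3 against TF group 1, where 739, 809 and 1279 were. It called 16 LIM domain regulators, 12 intermediate mesoderm genes, 12 Egfl6 relatives and 15 frizzled-type genes. Median centring and the added 50 each called 3 metallocarboxypeptidases. The methods' ANOVA at an unadjusted p of 0.05 called 1324 probe sets in TF group 2 against TF group 1 and 1353 in TF group 3 against TF group 2. The other counts stayed within 1.5 times, also with each array left out.

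With the replicate block, a paired fit, 5067, 5318 and 5137 probe sets were called against the control in TF groups 1, 2 and 3, 656 in TF group 2 against TF group 1, 763 in TF group 3 against TF group 2 and 1224 in TF group 3 against TF group 1. The median r of deviations was 0.01 for arrays of the same number and -0.01 for those of different numbers. Of 12 arrays, 6 had their best match in another group under their own number. No chance value was set beside that count, so it does not decide on pairing. Signals under 32 order nothing, which limits Lhx1 outside TF group 3, Grp in TF group 1 and the control, Egfl6 in TF group 3 and Cpz in the control.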
